A study of Mus musculus with 12 samples.

Results

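The genes described here are 10 members of the epidermal growth factor receptor (EGFR) system, chosen by name from the 22630 genes of the deposited tables. They are 3 receptors (Egfr, Erbb2 and Erbb3), 6 ligands (Areg, Ereg, Hbegf, Tgfa, Btc and Nrg1) and the intracellular receptor inhibitor Errfi1. All 10 passed the filter on low counts and were among the 17561 genes tested. Their RNA was measured in 12 subcutaneous tumors in 3 groups of 4, named no-dox, plus-dox and off-dox. Every tumor grew from KCip53-1, a single mouse pancreatic cancer cell line taken from a model that carries Ptf1a-Cre, TREp53R270H and R26rtTa, so all groups shared these alleles. In that model Cre is driven from the pancreatic epithelium, and doxycycline (dox) switches on the mutant p53R270H transgene. The hosts were immunocompromised NSG mice of 8 to 10 weeks, which have no mature lymphocytes, and each received injections of 500000 cells for each of 2 tumors. No-dox mice received no dox. Plus-dox mice drank dox at 0.2 g/l in 5% sucrose for 36 days. Off-dox mice drank the same for 33 days and were then without dox for 3 days by the sample labels, whereas the study's text describes removal once tumors were palpable. Which tumors shared a mouse is not given in the sources used here, and all tests take tumors as independent, so the p-values come out too low where a host carried both.

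The EGFR family consists of receptor tyrosine kinases that pair with one another after a ligand binds. Ligands are made as membrane-bound precursors and released by metalloproteases, and activated receptors signal to Ras through adaptors such as Grb2 and Shc1. In the pancreas, EGFR signaling is known for its part in acinar-to-ductal change and in early lesions.

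Libraries held 19845923 to 33137609 counted reads. The share of mapped reads that was counted was 88.4% to 89.4% in the no-dox group, 82.2% to 87.1% in the plus-dox group and 81.1% to 85.8% in the off-dox group, and the part of this share in the results below was not tested. Trp53, whose mutant form dox switches on, was at 40.1 to 57.4 RPKM (reads scaled by exon length and by the total of mapped reads) in the no-dox group, 40.4 to 56.0 RPKM in the plus-dox group and 41.6 to 45.4 RPKM in the off-dox group. For Trp53 the log2 fold change of plus-dox against no-dox tumors was 0.04 ± 0.11 (SE, edgeR quasi-likelihood test, adjusted p = 0.891). The dox switch was thus not seen in the RNA of this gene. Transgenic, host and any endogenous tumor cell transcripts are counted together, so this gene did not check the labels. The paper reports that the KCip53 lines it examined by PCR held only mutant p53 DNA and had lost the wild-type sequence. Tumor RNA was bulk and unsorted, so that fewer cells of a type and less RNA per cell cannot be told apart. Markers of epithelium were measured in every tumor, with a summed level of 12 genes between 1080 and 3140 RPKM. The tumors plus-dox 2 and off-dox 4 had been set apart from the other 10 by earlier results of these data. In plus-dox 2, 9 of the 12 epithelial markers lay below all other tumors of its group, with a median 14.6-fold below the median of those tumors. In off-dox 4, 8 of the 12 did so, with a median 2.76-fold below. The summed level of the 12, however, was lowest in off-dox 3. The fitted changes, the spread of the members and the ratio of ligand to receptor transcripts are given with and without plus-dox 2 and off-dox 4.

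The inhibitor Errfi1 (also called MIG6), which binds and blocks the EGFR kinase domain and is itself induced by growth factor signaling, had the highest mean level of the members. Its mean over the 12 tumors was 80.9 RPKM, and it ranked first among the 10 members in 11 of 12 tumors. Hbegf followed at 47.1 RPKM and Areg at 34.4 RPKM. Btc (17.7 RPKM), Erbb2 (15.8 RPKM) and Erbb3 (12.5 RPKM) formed a middle tier, with Egfr (8.87 RPKM), Ereg (7.85 RPKM), Tgfa (6.58 RPKM) and Nrg1 (3.07 RPKM) below. Without plus-dox 2 and off-dox 4, Errfi1 (73.7 RPKM), Hbegf (34.7 RPKM) and Areg stayed the first 3, Erbb2 (17.3 RPKM) preceded Btc (14.7 RPKM), and Tgfa preceded Ereg (4.87 RPKM). Most neighbors in this order overlapped across tumors. Within groups, the ranges of adjacent members overlapped at every step but one, which was Errfi1 (70.3 ± 16.0 RPKM, SD, n = 4) above Hbegf (35.6 ± 11.4 RPKM) in no-dox tumors. Within single tumors the order was steadier for some members. Hbegf ranked 2 or 3, Egfr 7 or 8 and Nrg1 9 or 10 in every tumor. Others moved more, such as Erbb3, from rank 4 to rank 10.

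Reference sequence around the transcription start is shown for 3 members, for the ligand with the widest spread between tumors (Areg), the most abundant member (Errfi1) and the member with the narrowest spread over all 12 tumors (Egfr). Each is a RefSeq window (GRCm38.p6, plus strand) of 250 bases before to 50 bases after the start, and 6 of the 10 members had such a window. Errfi1 had 2, of which the other (chr4:150853546-150853845) holds none of the motifs searched, and the window with matches is shown. Capitals mark matches on either strand to a cAMP response element (TGACGTCA), a TATA box (TATAAA), an AP-1 site (TGACTCA) or a GC box (GGGCGG).
Areg, chr5:91139349-91139648: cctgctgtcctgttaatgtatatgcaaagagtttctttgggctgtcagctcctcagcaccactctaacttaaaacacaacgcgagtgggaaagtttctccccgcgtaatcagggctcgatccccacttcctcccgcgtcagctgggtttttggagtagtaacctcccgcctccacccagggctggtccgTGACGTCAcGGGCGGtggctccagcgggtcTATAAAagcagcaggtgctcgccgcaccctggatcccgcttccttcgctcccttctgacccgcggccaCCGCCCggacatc
Errfi1, chr4:150854820-150855119: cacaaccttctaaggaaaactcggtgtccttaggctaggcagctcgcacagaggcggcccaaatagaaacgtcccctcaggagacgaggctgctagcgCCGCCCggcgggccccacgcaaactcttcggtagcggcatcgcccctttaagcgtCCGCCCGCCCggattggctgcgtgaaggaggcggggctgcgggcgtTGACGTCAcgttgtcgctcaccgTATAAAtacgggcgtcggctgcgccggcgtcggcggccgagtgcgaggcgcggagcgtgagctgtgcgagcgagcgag
Egfr, chr11:16751953-16752252: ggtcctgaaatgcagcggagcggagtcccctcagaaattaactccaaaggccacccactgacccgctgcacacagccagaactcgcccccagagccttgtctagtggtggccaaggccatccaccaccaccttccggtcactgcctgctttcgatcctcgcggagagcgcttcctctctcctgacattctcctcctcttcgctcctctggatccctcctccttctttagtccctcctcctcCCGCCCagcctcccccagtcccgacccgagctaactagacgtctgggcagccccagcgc
The Areg window holds the cAMP response element 61 bases before the start, a GC box beside it and a TATA box 31 bases before the start. A further GC box lies after the start, on the other strand. The Errfi1 window shown also holds the cAMP response element and the TATA box, at 51 and 28 bases before the start, and 3 GC boxes of which a pair overlaps. The Egfr window holds a single GC box and neither of the other elements. Of 32851 RefSeq promoter windows of this length, 1.79% hold the cAMP response element, 13.6% the TATA box, 5.20% the AP-1 site and 35.7% the GC box. These matches describe the letters alone.

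Erbb2 was the most abundant receptor in 11 of 12 tumors, all but plus-dox 2, in which Egfr exceeded it, and took a nearly fixed share of receptor transcripts. This orphan receptor has no known ligand of its own and is the preferred partner of the other receptors. Erbb2 (chr11:98273798-98299021, mm9) was at 15.4, 24.2, 12.3 and 22.0 RPKM in no-dox tumors 1 to 4, at 19.0, 7.30, 17.0 and 15.5 RPKM in plus-dox tumors 1 to 4, and at 19.9, 16.1, 11.6 and 9.56 RPKM in off-dox tumors 1 to 4. The groups overlapped, and plus-dox 2 and off-dox 4 were the lowest tumors. Of the summed RPKM of the 3 receptors, Erbb2 made up between 39.6% and 46.9% in every tumor.

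Erbb3, a receptor with an impaired kinase that binds neuregulins and couples strongly to PI3-kinase, varied most of all members. Erbb3 (chr10:128006424-128026557, mm9) was at 12.6, 21.9, 7.59 and 20.4 RPKM in no-dox tumors, at 14.6, 0.773, 14.5 and 12.4 RPKM in plus-dox tumors, and at 19.4, 14.0, 9.59 and 2.54 RPKM in off-dox tumors, each in the order 1 to 4. Its lowest value, in plus-dox 2, rested on 102 counted reads and was 28.4-fold below its highest. Compared with the median of the other 3 tumors of their group, Erbb3 was 18.8-fold lower in plus-dox 2 and 5.53-fold lower in off-dox 4. Its share of receptor RPKM was 4.79% in plus-dox 2 and 12.3% in off-dox 4, against 27.6% to 39.7% in the other 10 tumors.

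Egfr, the receptor for most of the ligands measured here, had the narrowest spread of the members over all 12 tumors. Egfr (chr11:16652206-16813910, mm9) was at 7.46, 9.90, 7.67 and 11.0 RPKM in no-dox tumors, at 6.98, 8.07, 10.8 and 9.30 RPKM in plus-dox tumors, and at 9.59, 10.6, 6.65 and 8.50 RPKM in off-dox tumors. The highest tumor was 1.65-fold above the lowest, the groups covered the same range, and plus-dox 2 and off-dox 4 lay inside it. The group means were 9.0 ± 1.7 RPKM (no-dox), 8.8 ± 1.6 RPKM (plus-dox) and 8.8 ± 1.7 RPKM (off-dox), with the SD of n = 4 each.

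Hbegf was the most abundant ligand in 10 of 12 tumors. It encodes heparin-binding EGF-like growth factor, which binds EGFR and ERBB4 and also serves as the diphtheria toxin receptor in primates. Hbegf (chromosome 18) was at 26.8, 25.1, 48.2 and 42.1 RPKM in no-dox tumors, at 29.4, 112, 41.1 and 29.9 RPKM in plus-dox tumors, and at 30.3, 43.2, 30.4 and 107 RPKM in off-dox tumors. Plus-dox 2 and off-dox 4 were high, and the other 10 tumors covered the same lower range, up to 48.2 RPKM, in all 3 groups. Hbegf made up 34.3% to 52.4% of the summed RPKM of the 6 ligands.

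Areg encodes amphiregulin, an EGFR ligand of epithelia. Areg (chr5:91568641-91577458, mm9) was at 10.6, 14.8, 48.9 and 19.9 RPKM in no-dox tumors, at 10.7, 78.6, 25.5 and 12.1 RPKM in plus-dox tumors, and at 22.3, 35.6, 9.71 and 124 RPKM in off-dox tumors. Off-dox 4 was highest, followed by plus-dox 2 and no-dox 3, and the lowest tumors of the 3 groups lay between 9.71 and 10.7 RPKM. The highest tumor was 12.8-fold above the lowest, the widest range of the ligands. Areg exceeded Hbegf in no-dox 3 and off-dox 4.

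Ereg, the gene of epiregulin, which binds EGFR and ERBB4, showed the same high tumors at a lower level. Ereg (chr5:91503643-91522675, mm9) was at 3.25, 2.96, 9.84 and 4.44 RPKM in no-dox tumors, at 3.71, 19.7, 5.21 and 4.57 RPKM in plus-dox tumors, and at 3.74, 7.30, 3.68 and 25.8 RPKM in off-dox tumors. Again off-dox 4 and plus-dox 2 were highest and no-dox 3 came next.

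Btc, which encodes betacellulin, a ligand of EGFR and ERBB4, ranged from 8.47 RPKM in off-dox 3 to 41.4 RPKM in off-dox 4. Btc (chr5:91786287-91832020, mm9) was at 13.6 to 21.9 RPKM in no-dox tumors and at 24.2 RPKM in plus-dox 2 against 11.7 to 12.6 RPKM in the other plus-dox tumors. Tgfa (chr6:86145245-86225443, mm9), the gene of transforming growth factor alpha, an EGFR ligand whose overexpression in mouse pancreas causes ductal metaplasia, ranged from 3.19 to 10.6 RPKM, and its groups overlapped fully. Nrg1 (chr8:32928500-33028675, mm9), a neuregulin that binds ERBB3 and ERBB4 rather than EGFR, was the least abundant member, at 2.67 to 3.06 RPKM without dox, 2.71 to 5.50 RPKM on dox and 2.07 to 3.54 RPKM after its removal. Errfi1 (chr4:150229200-150242989, mm9) was at 54.7 to 92.3 RPKM without dox, 65.9 to 137 RPKM on dox and 63.1 to 97.4 RPKM after its removal. Its highest tumor was plus-dox 2, while off-dox 4 (97.0 RPKM) did not exceed off-dox 3 (97.4 RPKM).

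**Figure D1:**
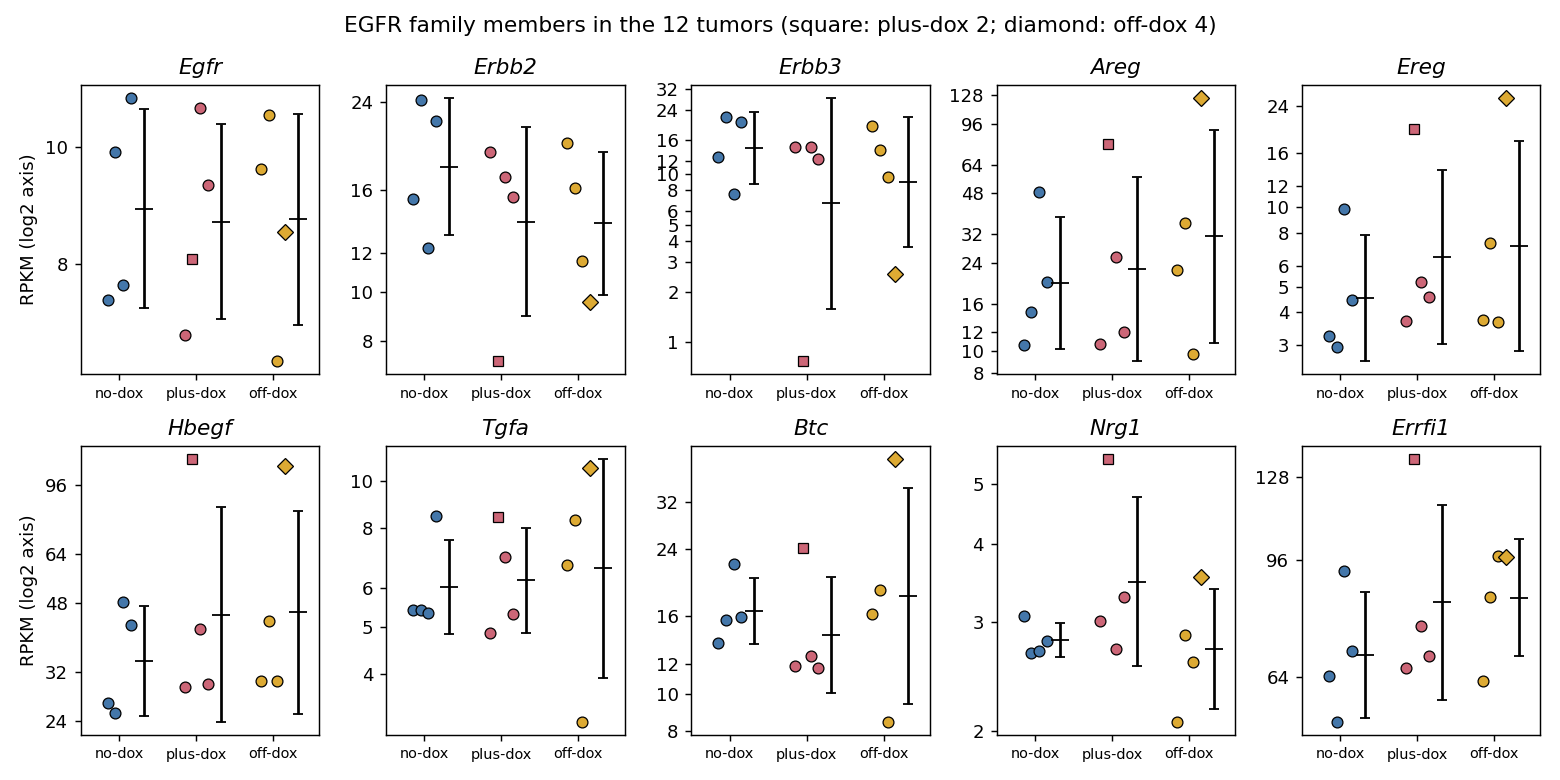
Level of each of the 10 members (RPKM, log2 axis) in the 12 tumors, by group, with 1 point per tumor, a square for plus-dox 2, a diamond for off-dox 4, and a bar for the mean ± SD of log2 RPKM (n = 4). The groups overlap for every member, Egfr lies between 6.65 and 11.0 RPKM throughout, and the square and the diamond are the lowest points for Erbb3 (0.773 and 2.54 RPKM) and the highest for Hbegf (112 and 107 RPKM).

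The first question was whether the mutant p53 switch changed the level of these genes, and no member passed the test in any comparison. A call needed an adjusted p under 0.1, a mean RPKM over 0.25 and a change over 1.5-fold in edgeR's quasi-likelihood test over all genes. For plus-dox against no-dox tumors 0 of 10 members were called, against 0% of all genes tested. For off-dox against no-dox tumors 0 of 10 were called, against 1.34% of all genes, and for off-dox against plus-dox tumors 0 of 10, against 0%. The members' unadjusted p-values were under 0.05 in 0 of 10 cases in each comparison. Of the 17561 genes tested, edgeR gave unadjusted p-values under 0.05 for 2400 in plus-dox against no-dox tumors. The count was 3586 in off-dox against no-dox tumors and 537 in off-dox against plus-dox tumors. In plus-dox against no-dox and in off-dox against plus-dox tumors, DESeq2 without moderation called 128 and 6 genes. With moderation it called 90 and 4, and limma-voom called 112 and 0. A joint test of the 3 groups also called 0 of 10 members and 0% of all genes, with 2621 genes at an unadjusted p under 0.05.

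Group ranges overlapped for all 10 members in all 3 comparisons. Separate ranges were also uncommon among all genes tested, at 7.77% for plus-dox against no-dox. They were found for 11.4% in off-dox against no-dox and 1.49% in off-dox against plus-dox. With percentages this low, 10 genes are too few for overlap to set the members apart from other genes. Differences between groups accounted for 0.219% of the variance of log2 CPM (counts scaled to library size) for Egfr and up to 22.9% for Nrg1, against a median of 21.4% over all genes tested. In this measure 9 of 10 members lay below that median.

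Among the receptors, the fitted changes were small for Egfr, and those of Erbb2 and Erbb3 against no-dox tumors were negative. For Egfr the log2 fold change was -0.02 ± 0.19 (SE) in plus-dox against no-dox, 0.00 ± 0.19 in off-dox against no-dox and 0.02 ± 0.19 in off-dox against plus-dox tumors. Its 3 95% intervals all lay between -0.44 and 0.44, so a change over 1.5-fold lay outside all 3 intervals. Erbb2 was at -0.32 ± 0.31 and -0.34 ± 0.31, and Erbb3 at -0.55 ± 0.72 and -0.44 ± 0.72, in plus-dox and off-dox tumors against the same no-dox tumors. The Erbb3 interval for plus-dox against no-dox tumors was wide, from -2.12 to 1.02. Without plus-dox 2 and off-dox 4 the Erbb3 changes were -0.17 and -0.11, and those of Erbb2 were -0.10 and -0.20.

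Areg, Ereg and Hbegf had positive fitted changes against no-dox tumors. These changes rested on plus-dox 2 in plus-dox tumors and on off-dox 4 in off-dox tumors. The positive change of Btc in off-dox tumors also rested on off-dox 4. In off-dox against no-dox tumors Areg was at 1.07 ± 0.84 (SE, 95% interval -0.76 to 2.89, edgeR adjusted p = 0.489) and Ereg at 1.02 ± 0.74 (-0.58 to 2.63, adjusted p = 0.448). Hbegf was at 0.60 ± 0.52 and Btc at 0.38 ± 0.42 in this comparison. Without plus-dox 2 and off-dox 4 the values were -0.06 for Areg, -0.06 for Ereg, -0.03 for Hbegf and -0.20 for Btc. The sign of all 4 changes thus turned when these tumors were left out. In plus-dox against the same no-dox tumors Areg was at 0.44 ± 0.83, Ereg at 0.70 ± 0.73 and Hbegf at 0.58 ± 0.52 with all tumors, and at -0.54, -0.20 and -0.09 without the pair. Tgfa and Btc were at 0.06 ± 0.33 and -0.15 ± 0.42, and at -0.10 and -0.48 without the pair. These intervals were too wide to show that the levels were alike.

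Nrg1 had the lowest unadjusted p of the members, with a log2 fold change of 0.38 ± 0.24 in plus-dox against no-dox tumors (SE, 95% interval -0.14 to 0.90, edgeR adjusted p = 0.468). It was 0.01 ± 0.24 in off-dox against no-dox and -0.37 ± 0.24 in off-dox against plus-dox tumors, and without the 2 tumors that stood apart 0.10, -0.15 and -0.24. Errfi1 was at 0.31 ± 0.26 in each comparison with the shared no-dox tumors, and at -0.001 and 0.23 without the pair. The median log2 fold change of the 6 ligands was 0.41 in plus-dox and 0.49 in off-dox against no-dox tumors, beside 0.01 and 0.01 over all genes tested, and that of the 3 receptors was -0.32 and -0.34. With the pair left out and no-dox 3 kept, the ligand medians turned to -0.15 and -0.06, and the receptor medians were -0.10 and -0.11. In 22 alternative settings for each comparison no member was called.

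**Figure D2:**
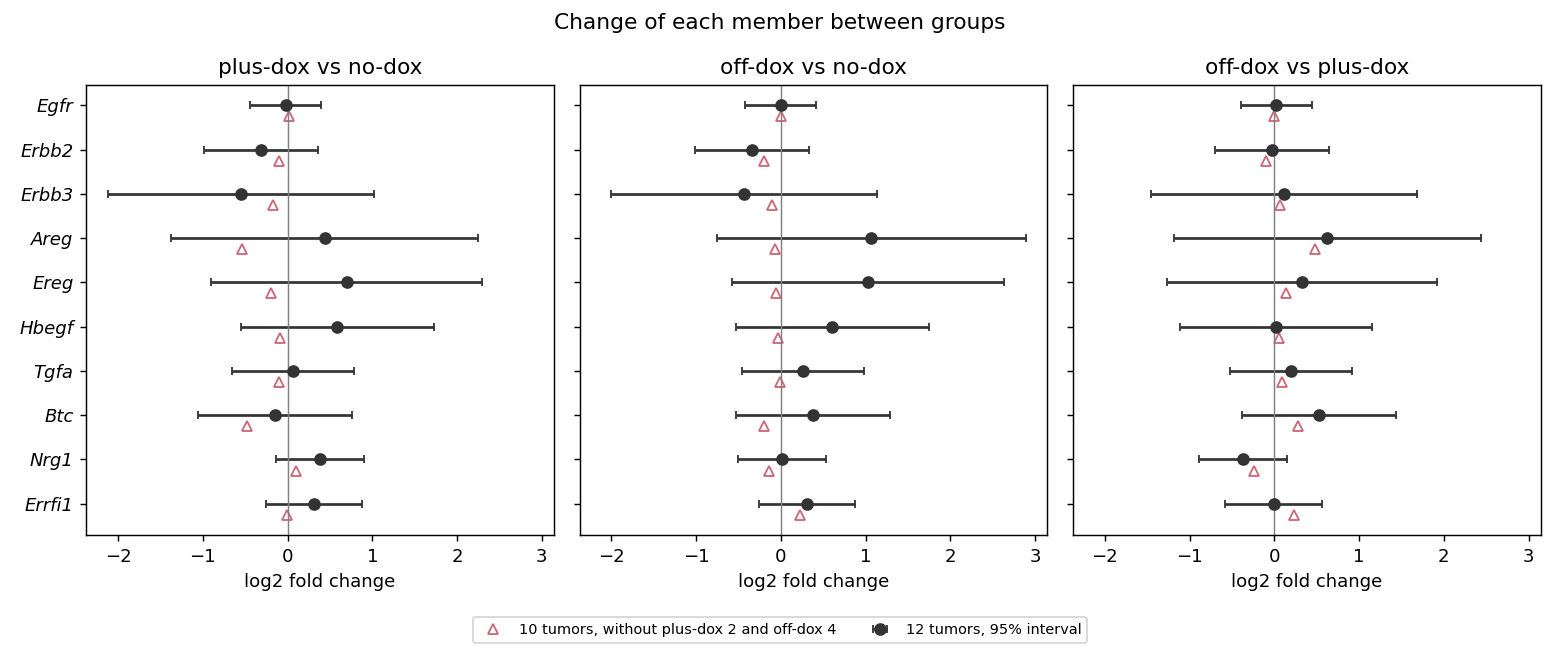
Log2 fold change of each member in the 3 comparisons, with filled points and bars for the fit of all 12 tumors and its 95% interval, and open triangles for the fit without plus-dox 2 and off-dox 4. Every interval includes 0, the narrowest are those of Egfr, and the triangles of Areg, Ereg and Hbegf lie at or left of 0 in both comparisons with no-dox tumors.

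The members differed from tumor to tumor more than from group to group, as did the median gene tested, with 21.4% of its variance between groups. Plus-dox 2 and off-dox 4 were high in ligand genes and low in Erbb2 and Erbb3. These tumors held the top 2 places among the 12 for Areg, Ereg, Hbegf, Btc and Nrg1, and the bottom 2 places for Erbb2 and Erbb3. Compared with the median of the other 3 tumors of the group, plus-dox 2 was 6.52-fold higher in Areg, 4.31-fold in Ereg, 3.74-fold in Hbegf and 2.05-fold in Btc. Off-dox 4 was 5.57-fold higher in Areg, 6.90-fold in Ereg, 3.53-fold in Hbegf and 2.55-fold in Btc. These ligands were thus at least 2-fold higher in both tumors, 4 of 10 members, against 2.54% of the 14548 genes whose mean RPKM exceeded 0.25. Erbb3 alone, 1 of 10 members, was at least 2-fold lower in both, against 6.63% of those genes. The 2 tumors and the members were chosen with earlier results of these data known, so these shares are a description and not a test. Areg, Ereg and Btc are also neighbors on chromosome 5 and do not count as separate cases. Tgfa was 1.58-fold higher in both tumors. Nrg1 was 1.83-fold and 1.37-fold higher and Errfi1 1.99-fold and 1.15-fold higher in plus-dox 2 and off-dox 4, respectively. Egfr, at 0.867 and 0.886 of the median of the other tumors, did not share in the pattern. No-dox 3 came next in the order of tumors for Areg, Ereg, Hbegf and Btc, and was next from the bottom for Erbb3.

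The markers of other cell types in these tumors were as follows, and their part in the pattern was not tested. The summed level of the 12 epithelial markers was 1366 RPKM in plus-dox 2 and 1570 RPKM in off-dox 4, against 1080 to 3140 RPKM over all tumors. The lowest sum was that of off-dox 3. This tumor was also the lowest for Egfr, Areg, Tgfa and Btc, but not for the other members. Krt8 and Krt18, set apart after their values were seen, made up 83.4% of the sum in plus-dox 2, 81.4% in off-dox 4 and 65.7% in off-dox 3. Without them, the other 10 markers summed to 227 RPKM in plus-dox 2 and 293 RPKM in off-dox 4, the lowest of the 12 tumors, and to 371 to 1383 RPKM in the others. For 6 of the 12 markers, both tumors lay below the other 10. No epithelial marker was listed at 0. Of 8 endothelial markers, 7 lay above all other tumors of the group in plus-dox 2 and 7 in off-dox 4, with summed levels of 130 and 55.6 RPKM against 32.1 to 56.0 RPKM in the other 10 tumors. Skeletal muscle markers summed to 458 RPKM in plus-dox 2 and 15.4 RPKM in off-dox 4, and the range over all tumors was 15.4 to 1284 RPKM. Fibroblast markers summed to 3082 RPKM in plus-dox 2, the highest tumor, and 1534 RPKM in off-dox 4. Adipocyte markers (350 and 323 RPKM), macrophage markers (1259 and 1010 RPKM) and neutrophil markers (57.1 and 23.8 RPKM) in plus-dox 2 and off-dox 4 lay within or at the edge of the ranges of all tumors, which were 14.5 to 1110, 1010 to 1757 and 23.3 to 57.1 RPKM. Schwann cell markers summed to 22.3 to 57.9 RPKM, lowest in off-dox 4, and squamous markers to 6.81 to 51.5 RPKM, lowest in plus-dox 2. In all, 1 of 8 Schwann, 4 of 8 squamous and 2 of 7 neutrophil markers were listed at 0 in at least 1 tumor.

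**Figure D3:**
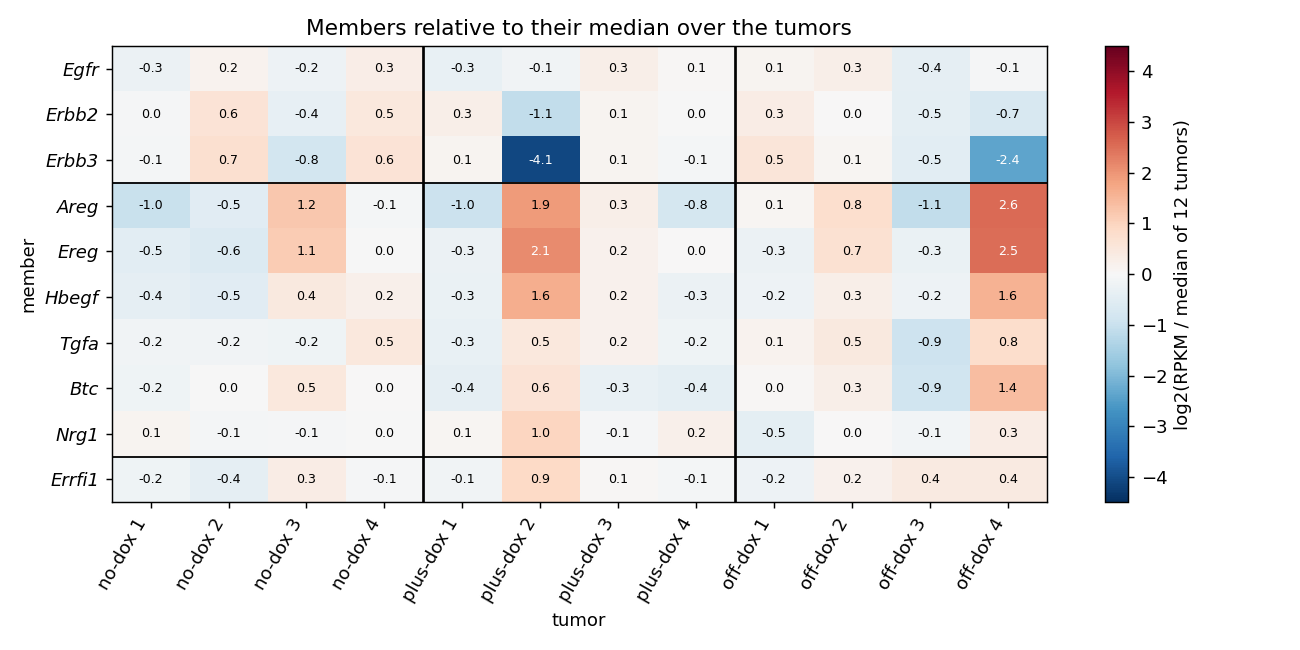
Log2 ratio of each member's RPKM to its own median over the 12 tumors, with members in rows (receptors, ligands, then the inhibitor) and tumors in columns by group. The columns of plus-dox 2 and off-dox 4 carry the largest values, such as 1.90 and 2.56 for Areg and -4.11 and -2.39 for Erbb3, and the Egfr row stays between -0.42 and 0.30.

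The balance of ligand to receptor transcripts followed these tumors as well. The 6 ligands summed to 58.0 to 313 RPKM and the 3 receptors to 16.1 to 56.1 RPKM. The ratio of the sums was 15.4 in plus-dox 2, 15.2 in off-dox 4 and 4.97 in no-dox 3, and it ran from 1.19 to 2.85 in the other 9 tumors. By group the ratio was 2.42 ± 1.72 (no-dox), 5.24 ± 6.76 (plus-dox) and 5.45 ± 6.51 (off-dox, SD, n = 4 each), and all 3 ranges overlapped. With plus-dox 2 and off-dox 4 left out, the mean ratio was 1.86 ± 0.33 on dox and 2.20 ± 0.60 after its removal (SD, n = 3 for both). The no-dox mean of 2.42 still held no-dox 3, and the other no-dox tumors were at 1.77, 1.19 and 1.75. Leaving out high tumors from the dox groups alone thus does not order the groups. Areg made up 39.7% of ligand RPKM in off-dox 4, 35.7% in no-dox 3 and 31.7% in plus-dox 2, against 16.7% to 30.7% elsewhere.

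**Figure D4:**
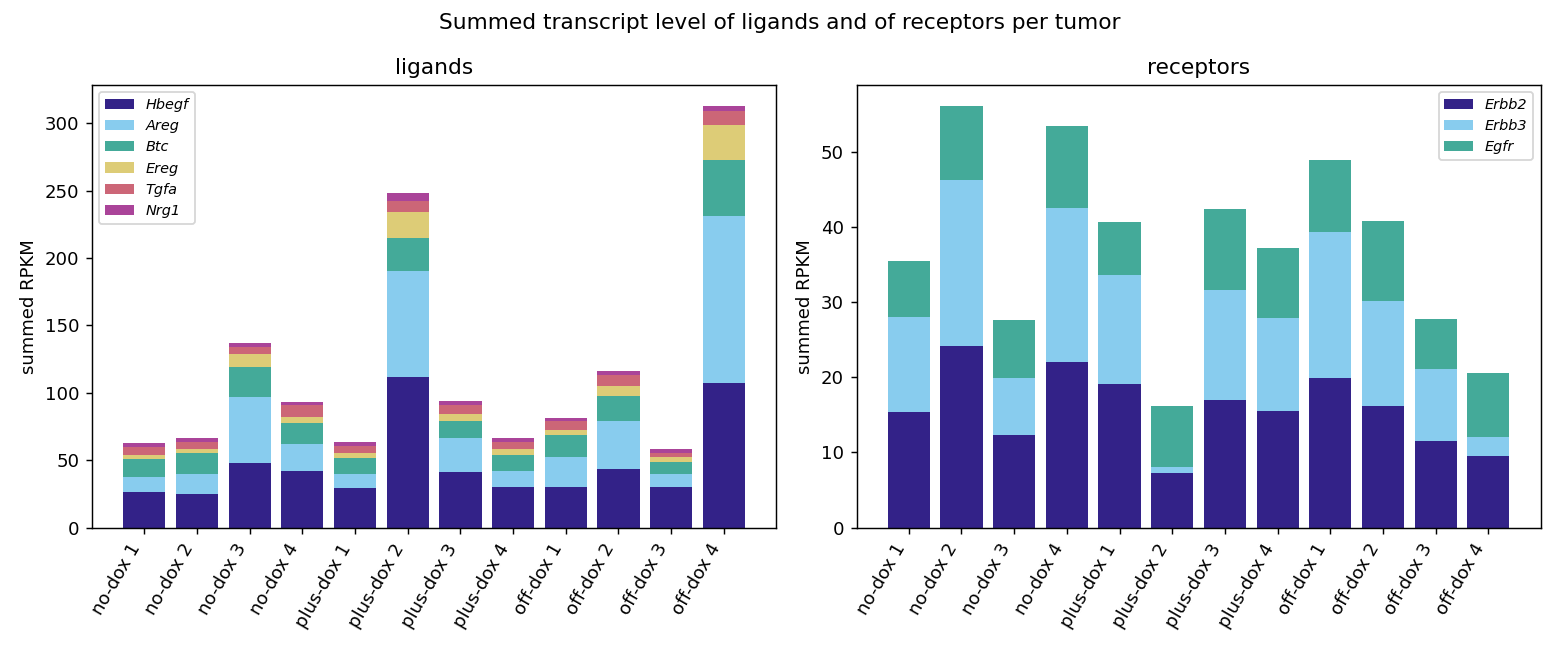
Summed RPKM of the 6 ligands (left) and of the 3 receptors (right) in each tumor, stacked by gene, both axes from 0. The ligand bars of plus-dox 2 (248 RPKM) and off-dox 4 (313 RPKM) are the tallest and their receptor bars (16.1 and 20.6 RPKM) the shortest, with almost no Erbb3 in plus-dox 2.

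Spread over the tumors ordered the members differently from level. The SD of log2 CPM over 12 tumors was 1.39 for Erbb3, 1.24 for Areg and 1.06 for Ereg, at the 97.3, 96.1 and 94.1 percentile of all genes tested, whose median SD was 0.32. Hbegf (86.1 percentile) and Btc (77.8) followed, and Egfr lay at the 41.9 percentile. Without plus-dox 2 and off-dox 4, Areg remained at the 93.8 percentile, while Erbb3 was at 72.6, Ereg at 80.0 and Hbegf at 62.5. Egfr was then at the 52.8 percentile, and Nrg1 (SD 0.17, 19.9 percentile) and Errfi1 (SD 0.29, 51.9 percentile) had a narrower spread than Egfr (SD 0.30). Areg varied widely among the other 10 tumors too, which include no-dox 3.

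The genes whose profile over the tumors was most like that of each member were listed by Pearson's r of log2 CPM, as a description over tumors that share depth and composition. Erbb3 was closest to Myh14 (r = 0.997), which encodes a nonmuscle myosin, and Cgn (r = 0.997), which encodes the junction protein cingulin, and Erbb2 to Xpc (r = 0.988). Ereg was closest to F2r (r = 0.989), the thrombin receptor gene, and Dusp5 (r = 0.986). Hbegf was closest to Dlg3 (r = 0.985), Dusp1 (r = 0.984) and Dusp5 (r = 0.982). Dusp1 and Dusp5 encode phosphatases that act on MAP kinases. Areg was closest to Smurf2 (r = 0.976), the gene of a ubiquitin ligase, Btc to Dyrk3 (r = 0.960), Tgfa to Tbc1d8b (r = 0.946), Nrg1 to Cacnb2 (r = 0.932), Errfi1 to Nes (r = 0.960) and Egfr to Smad4 (r = 0.925). These values are over 12 tumors. Over the 10 tumors without the pair, r was 0.973 for Erbb3 and Myh14, 0.958 for Ereg and F2r, 0.944 for Hbegf and Dusp1 and 0.948 for Areg and Smurf2, and 0.707 for Nrg1 and Cacnb2.

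Areg, Ereg and Btc are neighbors on chromosome 5, in a stretch that also holds Epgn, another EGFR ligand gene. Between Mthfd2l and Parm1, neighbors picked for their position after values were seen, the order is Epgn, Ereg, Areg, Gm19619 and Btc (mm9). Epgn was at the edge of detection, with 1 to 8 counted reads per tumor, and Gm19619 had 6 to 36 reads, so neither bears a comparison. Mthfd2l, upstream of the ligands, was steady at 3.39 to 5.33 RPKM and was 1.19-fold and 1.35-fold above the other tumors of the group in plus-dox 2 and off-dox 4. Parm1, on the far side of Btc, went the other way and was 6.83-fold and 2.45-fold lower in plus-dox 2 and off-dox 4. The elevation of Ereg, Areg and Btc in these tumors was thus not shared at this size by the expressed genes on either side.

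**Figure D5:**
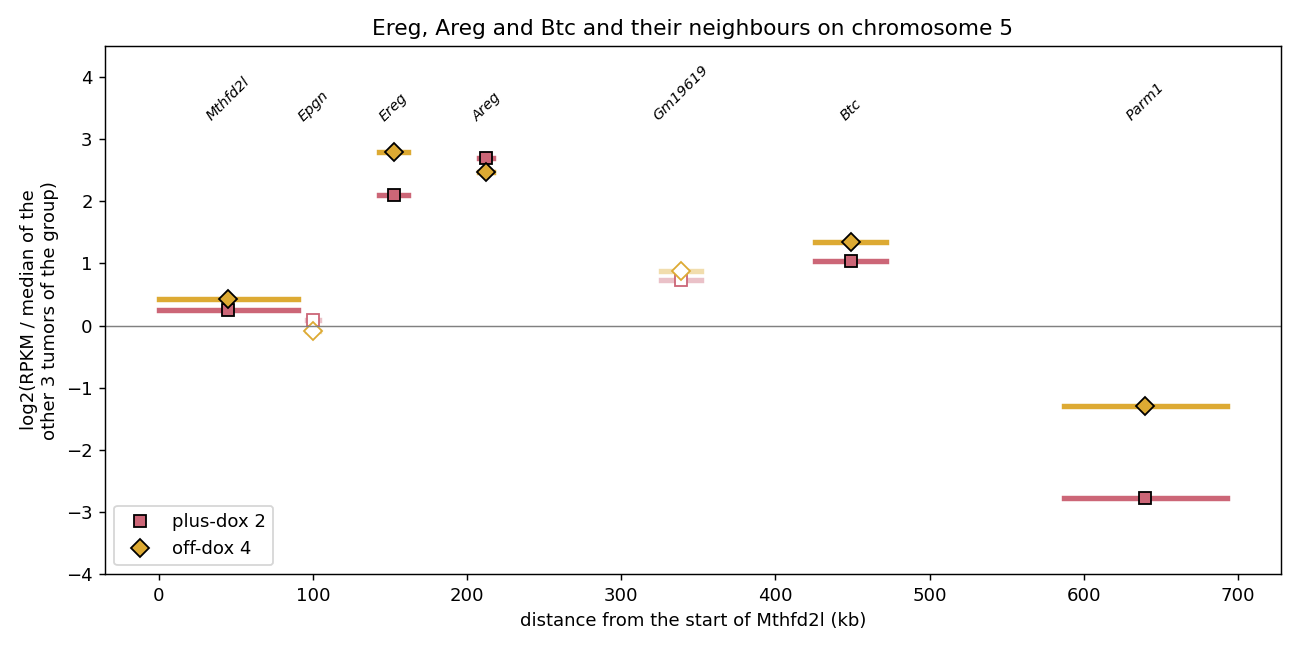
Log2 ratio of RPKM in plus-dox 2 (squares) and off-dox 4 (diamonds) to the median of the other 3 tumors of the group, for Ereg, Areg, Btc and their neighbors, drawn as bars at gene scale against distance in kb from the start of Mthfd2l, with pale open symbols for Epgn and Gm19619 (at most 36 reads). Ereg, Areg and Btc lie above 0 in both tumors, at 2.05-fold to 6.90-fold, and Parm1 below.

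Among 43 other genes of the pathway, of which 39 exceeded the limit of 0.25 RPKM, 2 were called, both higher in off-dox than in no-dox tumors, where 1.03% of all genes tested were called higher. Of 6 other ERBB receptors and ligands none was called, but 4 of them (Erbb4, Epgn, Nrg2 and Nrg3) had a mean under that limit and could not be called. Erbb4 (0.007 to 0.301 RPKM), Egf (0.168 to 0.661 RPKM) and Epgn were barely expressed, and Nrg4, a ligand of ERBB4, was at 0.503 to 3.53 RPKM with its lowest value in plus-dox 2. Nrg2 and Nrg3, the other neuregulin genes, were at 0.035 to 0.330 RPKM and at 0 to 0.045 RPKM. Of 8 genes of ligand processing and shedding 0 were called, and the most abundant were Adam9 (55.0 to 77.3 RPKM), Timp3, a metalloprotease inhibitor (29.9 to 74.9 RPKM), and Adam10 (33.4 to 55.9 RPKM), a sheddase of betacellulin. Their sum ran from 193 to 242 RPKM over the 12 tumors.

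Of 14 adaptors and effectors 1 was called, Gab2, a scaffold that recruits PI3-kinase and SHP2. Gab2 was at 4.47, 4.81, 4.62 and 5.59 RPKM in no-dox tumors, 4.80, 7.84, 6.16 and 5.31 RPKM in plus-dox tumors and 7.05, 7.02, 6.69 and 8.07 RPKM in off-dox tumors. All off-dox tumors lay above all no-dox tumors, with a log2 fold change of 0.59 ± 0.16 (SE, edgeR adjusted p = 0.098). The most abundant of this list were Crk (55.0 to 80.8 RPKM), Shc1 (40.6 to 52.1 RPKM) and Grb2 (33.9 to 41.6 RPKM), which varied little. Shc1 and Grb2 link activated receptors to Ras. Of 15 genes of receptor turnover and negative regulation 1 was called, Cbl, the ubiquitin ligase that marks activated EGFR for degradation. Cbl was at 4.60, 4.61, 5.20 and 5.27 RPKM in no-dox tumors, 6.02, 7.85, 7.27 and 7.29 RPKM in plus-dox tumors and 6.87, 8.51, 7.30 and 10.6 RPKM in off-dox tumors. The off-dox tumors again lay above all no-dox tumors, with a log2 fold change of 0.79 ± 0.16 (SE, edgeR adjusted p = 0.081), and the plus-dox tumors did too, at 0.54 ± 0.16 (adjusted p = 0.322), which was not called. Neither call held when no-dox 1, 2, 3 or 4, plus-dox 3 or 4, or off-dox 2, 3 or 4 was left out, which gave 0 called genes. Over 22 alternatives the adjusted p ran from 0.023 to 0.226 for Gab2 and from 0.001 to 0.218 for Cbl. Epn1, Eps15 and Erbb2ip, the most abundant genes of the turnover list, were at 41.0 to 57.1, 22.1 to 35.2 and 21.7 to 32.7 RPKM, respectively.

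Some genes of these lists followed the members in the 2 tumors that stood apart, and they are named after their values were seen. Grb7, an adaptor gene that lies close to Erbb2 on chromosome 11, was at 3.51 RPKM in plus-dox 2 and 7.06 RPKM in off-dox 4, against 18.0 to 46.7 RPKM in the other tumors. Cblc, a Cbl relative of epithelia, was at 0.367 and 2.40 RPKM in these tumors and reached 24.0 RPKM in no-dox 2. Cblb, at 10.5 and 11.6 RPKM against 3.82 to 6.48 RPKM, and Sh3kbp1, a Cbl-binding adaptor gene at 23.4 and 21.4 RPKM against 7.65 to 11.2 RPKM, were higher in both.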

How the data were processed

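Polyadenylated RNA of 12 bulk tumors was sequenced as 50-bp single-end reads without strand information, so overlapping antisense transcripts cannot be told apart. The authors mapped reads to mm9 with TopHat (1.4.1), condensed RefSeq to 1 model per gene and deposited, for 22630 genes, expected counts from base-wise exonic coverage and RPKM scaled by exonic length and mapped reads. The submitters' processing notes also name CASAVA (1.8.2), Bowtie (0.12.8) and bedtools (2.16.2). How reads with several positions were treated is not given in the sources used here. Here, counts were rounded, genes with at least 10 counts over all tumors were kept, and the 3 groups were fitted together with edgeR (4.0.16, TMM, quasi-likelihood test, Benjamini-Hochberg adjustment over all genes tested). The limits of the study, which used DESeq2, were kept (adjusted p under 0.1, over 1.5-fold, mean RPKM over 0.25, length over 250 bp). Log2 CPM used a prior count of 2. Alternatives were DESeq2 (1.42.0), limma-voom (3.58.1) with tumor weights, RLE factors, other filters, fits of each pair of groups, a replicate block, an epithelial covariate, each tumor left out, and both tumors that stood apart left out. A further allele shared by all tumors is not reported here. The members and lists were chosen with earlier results of these data known. Named are all members, 6 other ERBB genes, the 3 most abundant and all called genes of each list, and the 3 genes most like each member, of which the first are given. Promoter windows came from RefSeq (GRCm38.p6).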

Additional observations from a re-analysis of the deposited data

Results flagged for a closer look

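In 8 of 30 groups of 4 tumors, the highest or lowest tumor lay so far from the other 3 that its gap exceeded Dixon's 95% limit for 4 values. For normally distributed values such a gap arises in about 1 in 20 groups. The gaps here were taken on RPKM, not on log2 values, and the members are not independent of one another. The count of flagged groups was therefore not tested against that rate. Plus-dox 2 was the extreme tumor for Erbb3 (0.773 RPKM, others 12.4 to 14.6 RPKM), Ereg (19.7 RPKM, others 3.71 to 5.21 RPKM), Hbegf (111.7 RPKM, others 29.4 to 41.1 RPKM), Btc (24.2 RPKM, others 11.7 to 12.6 RPKM) and Errfi1 (136.6 RPKM, others 65.9 to 76.3 RPKM). Off-dox 4 was the extreme tumor for Ereg (25.8 RPKM, others 3.68 to 7.30 RPKM) and Hbegf (107.2 RPKM, others 30.3 to 43.2 RPKM). The remaining value was Tgfa in no-dox 4, at 8.44 RPKM against 5.34 to 5.43 RPKM in the other no-dox tumors.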

How the results depend on the processing

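The count of members called stayed at 0 in all 22 alternatives for each comparison and in all 16 of the joint test. Of 300 member changes recomputed without leaving out a single tumor, 276 kept their sign at 2 decimals and 24 reversed. Without plus-dox 2 and off-dox 4 the reversed values were Egfr 0.012, Areg -0.54, Ereg -0.20, Hbegf -0.087, Tgfa -0.10 (plus-dox against no-dox), Areg -0.064, Ereg -0.062, Hbegf -0.032, Tgfa -0.0084, Btc -0.20, Nrg1 -0.15 (off-dox against no-dox) and Egfr -0.0054, Errfi1 0.23 (off-dox against plus-dox). With the epithelial level as covariate they were Egfr 0.059, Areg -0.16 (plus-dox against no-dox), Nrg1 -0.14 (off-dox against no-dox) and Errfi1 0.044 (off-dox against plus-dox). With limma-voom they were Egfr 0.083, Tgfa -0.0095 (plus-dox against no-dox), Nrg1 -0.063 (off-dox against no-dox) and Errfi1 0.23 (off-dox against plus-dox). The cause of these reversals was not tested. The number of members above the 90th percentile of spread was 3, and 1 with a prior count of 0.5 and 1 without the 2 tumors. Of 43 other pathway genes 2 were called in off-dox against no-dox tumors, and 1 with DESeq2 with moderation and 0 to 2 with a tumor left out. Over all genes the off-dox against no-dox count of 235 became 615 and 396 with DESeq2 without and with moderation, 641 with limma-voom and 473 without the 2 tumors.

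The labels state no pairing of tumors by replicate number. Same-numbered tumors correlated at a mean of -0.088 (-0.449 to 0.566) over 12 pairs of deviations from the group means. Differently numbered ones correlated at a mean of 0.043 (-0.68 to 0.665, 36 pairs). With ranges this wide, the values cannot show whether same-numbered tumors shared a host or a batch. With a replicate block 0 members and, over all genes, 0 in place of 235 were called in off-dox against no-dox tumors, and the reversed values were Nrg1 -0.018 (off-dox against no-dox) and Hbegf -0.027, Errfi1 0.0075 (off-dox against plus-dox).

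With single tumors left out, 38 of 360 changes reversed. The lowest and highest values of the members concerned were Areg -0.53 to 1.11, Btc -0.48 to 0.031, Egfr -0.17 to 0.11, Ereg -0.19 to 1.26, Hbegf -0.083 to 0.79, Tgfa -0.098 to 0.28 (plus-dox against no-dox). They were Areg -0.067 to 1.73, Btc -0.20 to 0.65, Ereg -0.066 to 1.58, Hbegf -0.037 to 0.81, Nrg1 -0.15 to 0.14, Tgfa -0.013 to 0.51 (off-dox against no-dox), and Areg -0.51 to 1.60, Btc -0.057 to 0.86, Egfr -0.085 to 0.17, Erbb2 -0.25 to 0.11, Erbb3 -0.27 to 0.44, Ereg -0.76 to 1.22, Errfi1 -0.13 to 0.30, Hbegf -0.62 to 0.69, Tgfa -0.078 to 0.45 (off-dox against plus-dox).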
